A study of Mus musculus with 15 samples.

Results

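Mouse bone marrow monocytes given RANKL together with pterosin B (SCRP) were compared with the same kind of culture that never received RANKL (SC), to see what state the treated cells had reached after exposure to the osteoclast signal. The comparison used 6 of the 15 libraries of the series, 3 in each group, and ran across every gene of the deposited table. RANKL cultures without pterosin B (SCR, 3 libraries) were set beside them, so that each level could be placed between the precursor and the osteoclast culture. All 9 cultures came from C57BL/6J bone marrow. Non-adherent cells were re-seeded in 48-well plates and kept for 2 days in α-MEM with serum and 50 ng/ml M-CSF. SCRP cultures then had 50 ng/ml RANKL, 50 ng/ml M-CSF and 300 µM pterosin B for 3 days. SCR cultures had the same cytokines for 3 days, and the labels give vehicle as the agent of SC cultures. How long SC cultures were kept after the first 2 days is not given in the sources used here. SCRP and SC differ in both RANKL and pterosin B, so the effects of these agents, and of a possible difference in culture time, cannot be told apart here. Whether a group's libraries come from different animals is not stated, and p-values therefore measure the spread between these samples, which may be technical.

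RANKL, a member of the tumour necrosis factor family, binds its receptor RANK on monocytes that M-CSF keeps alive. TRAF adaptor proteins carry the signal to the NF-kB and AP-1 transcription factors, and these, together with calcium signals through immunoreceptor adaptors, switch on NFATc1, the master regulator of osteoclasts. NFATc1 then drives genes for fusion, acid secretion and matrix degradation, while repressors of the process and macrophage genes decline. Pterosin B is a compound of bracken fern that is used as an inhibitor of signalling through salt-inducible kinase 3.

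The libraries held 40338706 to 49927591 exon reads in SCRP, 37138648 to 49610156 in SCR and 40152624 to 48431715 in SC. Levels are given in CPM, a gene's counts per 1e+06 reads of its library after scaling with TMM factors, with the SD over 3 libraries where a mean is printed. Each fold change is on the log2 scale as SCRP minus SC, with its standard error (SE). A gene was called at an adjusted p under 0.05 in edgeR's quasi-likelihood test. Defining monocyte markers were present in both groups: Csf1r, the M-CSF receptor, had 1009, 1038 and 1046 CPM in SCRP and 2103, 2119 and 1931 CPM in SC, while Cd3e of T cells had 0 reads in all 9 libraries. Haemoglobin reads were confined to SCRP among these 9 libraries, with 931 reads of Hba-a1 and 77 of Hbb-bs in SCRP replicate 3 and at most 14 reads of Hba-a2 in any library. In these bulk samples, fewer cells of a type and less RNA per cell cannot be told apart.

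SCRP cultures stood apart from both other groups. Of 13650 genes tested, 7639 (56.0%) differed between SCRP and SC, with 3904 higher (28.6%) and 3735 lower (27.4%). The change was mostly small, with a median absolute log2 fold change of 0.50 among called genes, and 1854 genes (13.6%) differed at least 2-fold, 775 higher (5.68%) and 1079 lower (7.9%). The median over all genes tested was 0.02. By range alone, 8389 genes (61.5%) had all 3 SCRP libraries outside the range of the SC libraries, 4243 above it (31.1%) and 4146 below it (30.4%). Without TMM factors all log2 differences are higher by 0.13, and the split becomes 5502 above and 3180 below. The root mean square log2 difference per pair of libraries was 1.01 to 1.08 between SCRP and SC and 0.789 to 0.841 between SCRP and SCR, against 1.21 to 1.27 between SCR and SC. Pairs of libraries within a group differed by 0.525 to 0.577.

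**Figure D1:**
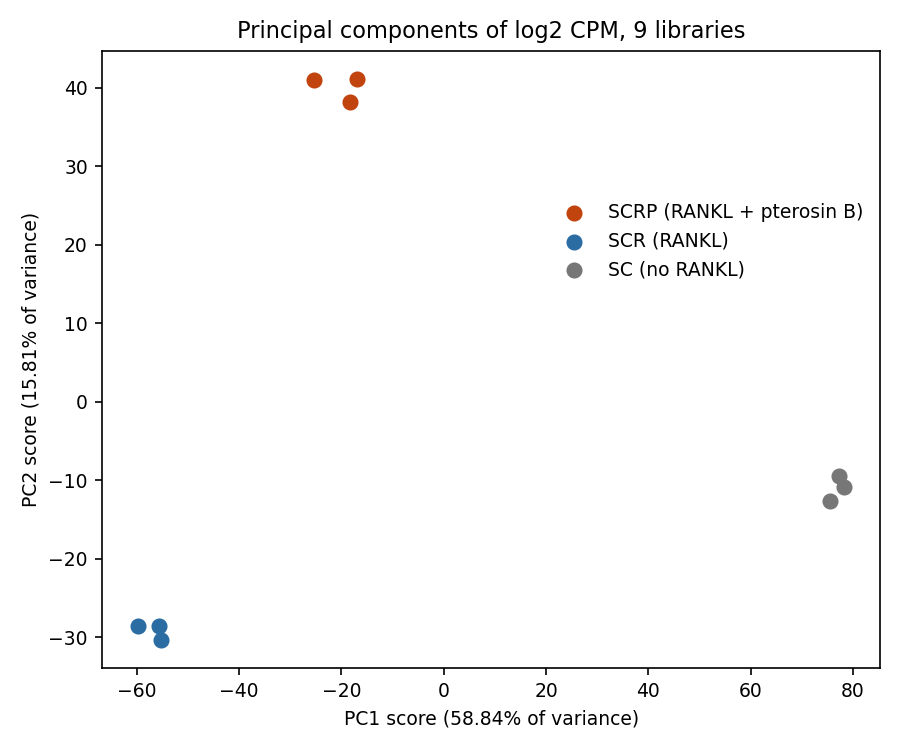
Scores of the 9 libraries on the first and second principal components of log2 CPM, with 1 point per library. The first component (58.84% of the variance) placed SCRP between SCR and SC, nearer to SCR, and the second (15.81%) placed the SCRP libraries at 38.2 to 41.1, above all others.

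Several genes of early RANK signalling stood at or above the SCR level in SCRP cultures. Traf1, a TRAF adaptor gene induced by NF-kB (ENSMUSG00000026875, GRCm38 chromosome 2, 34941750 to 34961772), had 138, 127 and 135 CPM in SCRP and 123, 109 and 114 CPM in SCR, against 0.767, 0.629 and 0.642 CPM in SC. The SCRP libraries lay above both other groups, with a log2 fold change over SC of 7.60 ± 0.09 (SE) and adjusted p = 6.89e-18. Nfkb2, the precursor of the p52 subunit of the alternative NF-kB pathway, had 271, 258 and 242 CPM in SCRP and 255, 247 and 247 CPM in SCR, against 51.2, 48.5 and 47.7 CPM in SC. Its log2 fold change over SC was 2.39 ± 0.05 (SE, adjusted p = 3.82e-15), and SCRP did not pass the test against SCR (log2 0.04, adjusted p = 0.538). Relb, its partner subunit, was at 49.4 ± 0.922 CPM in SCRP, 42.6 ± 3.21 CPM in SCR and 15.2 ± 1.84 CPM in SC (SD, n = 3 each), and Nfkbia, the inhibitor that NF-kB itself induces, at 251 ± 7.77, 219 ± 4.95 and 79.7 ± 4.24 CPM. Both had all SCRP libraries above those of both other groups.

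Promoters of genes that left the SC range are shown because Nfkb2 and Traf1 are known targets of NF-kB and Ctsk of NFATc1 and AP-1, and because Rufy4 had no read in SC. These are RefSeq windows on GRCm38.p6, from 250 bases before to 50 after a transcription start, and capitals mark matches to the AP-1 motif TGANTCA or to the NF-kB consensus motif, both searched on both strands. Of 32851 such windows in the reference, 7.81% held the AP-1 motif and 8.46% the NF-kB motif. Overlapping matches are drawn as 1 run. Of the 3 windows of Nfkb2 the one nearest its annotated start is shown, and the windows lie at Nfkb2 (chr19:46304487-46304786, plus strand), Traf1 (chr2:34961723-34962022, minus strand), Ctsk (chr3:95498960-95499259, plus strand) and Rufy4 (chr1:74125291-74125590, plus strand).
Nfkb2: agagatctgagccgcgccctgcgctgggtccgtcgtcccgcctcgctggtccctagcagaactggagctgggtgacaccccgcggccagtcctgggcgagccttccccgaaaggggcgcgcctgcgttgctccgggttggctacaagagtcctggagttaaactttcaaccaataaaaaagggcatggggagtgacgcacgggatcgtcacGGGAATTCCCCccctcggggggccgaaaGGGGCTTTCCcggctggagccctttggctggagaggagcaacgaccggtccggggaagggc
Traf1: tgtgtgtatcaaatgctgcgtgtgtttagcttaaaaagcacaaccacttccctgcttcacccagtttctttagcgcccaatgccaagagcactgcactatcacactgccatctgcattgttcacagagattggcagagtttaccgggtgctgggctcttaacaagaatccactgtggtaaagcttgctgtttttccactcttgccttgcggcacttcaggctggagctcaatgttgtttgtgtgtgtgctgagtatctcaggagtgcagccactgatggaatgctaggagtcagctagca
Ctsk: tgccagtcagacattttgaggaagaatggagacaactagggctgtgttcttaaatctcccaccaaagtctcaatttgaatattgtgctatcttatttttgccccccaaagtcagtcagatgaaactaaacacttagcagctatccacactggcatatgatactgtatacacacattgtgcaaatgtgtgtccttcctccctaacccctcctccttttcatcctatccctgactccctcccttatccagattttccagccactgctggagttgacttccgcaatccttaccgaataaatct
Rufy4: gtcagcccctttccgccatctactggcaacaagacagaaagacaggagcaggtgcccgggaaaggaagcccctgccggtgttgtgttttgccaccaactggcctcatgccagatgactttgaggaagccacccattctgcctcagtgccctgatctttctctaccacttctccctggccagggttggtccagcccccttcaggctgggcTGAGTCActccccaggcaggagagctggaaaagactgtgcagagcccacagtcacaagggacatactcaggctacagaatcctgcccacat
The Nfkb2 window held 2 runs that match the NF-kB motif, GGGAATTCCCC starting 39 bases and GGGGCTTTCC starting 11 bases before the start site. The second run does not overlap the first. The Rufy4 window held the AP-1 match TGAGTCA 41 bases before the start. The letters of neither motif are in the Traf1 and Ctsk windows.

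Other members of the RANK list were less changed. Of its 21 members tested, 9 were higher and 5 lower in SCRP, with a median log2 fold change of 0.11. This and each later list count is to be read beside the shares over all genes tested, 28.6% higher and 27.4% lower. Traf2 (47.6 ± 2.58 CPM in SCRP and 19.7 ± 1.47 CPM in SC) and Traf3 (127 ± 4.78 and 61.4 ± 1.32 CPM), adaptors that restrain the alternative pathway, both rose about as far as in SCR, where they stood at 49.4 and 129 CPM. Map3k14, the kinase they control, rose by 0.95 ± 0.07 on the log2 scale, and Tnfrsf11a, which encodes RANK itself, by 0.63 ± 0.05. Traf6, the main adaptor of RANK, was at 62.5 ± 1.35 CPM in SCRP and 60.9 ± 4.32 CPM in SC (adjusted p = 0.62).

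Of 24 osteoclast transcription factors tested, 15 were higher and 4 lower in SCRP, with a median of 0.29. Fos, an AP-1 subunit without which osteoclasts do not form, had 282, 263 and 278 CPM in SCRP and 266, 258 and 250.4 CPM in SCR, against 78.3, 69.2 and 59.3 CPM in SC (log2 1.99 ± 0.07 over SC, adjusted p = 1.55e-12). Every SCRP library stood above every SC library, and SCRP did not pass the test against SCR (log2 0.09, adjusted p = 0.363). Nfatc1 had 191, 164 and 159.8 CPM in SCRP and 488, 463 and 459.7 CPM in SCR, against 54.8, 57.6 and 58.7 CPM in SC. The 3 groups did not overlap, and Nfatc1 rose by 1.59 ± 0.06 over SC (adjusted p = 2.69e-12) while lying below SCR (log2 difference, SCRP minus SCR, -1.46 ± 0.06). Jdp2, an AP-1 family member that promotes osteoclast formation, had 331, 262 and 265 CPM in SCRP and 559, 471 and 483 CPM in SCR, against 12.9, 13.9 and 13.9 CPM in SC, a rise of 4.40 ± 0.10 over SC. Its SCRP libraries lay nearer to SCR than to SC.

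Prdm1, a repressor that silences the brakes on osteoclast formation, was at 49.5 ± 7.64 CPM in SCRP, 119 ± 6.96 CPM in SCR and 11.6 ± 2.71 CPM in SC. Fosl2, another AP-1 subunit, was at 160.0 ± 14.5, 430.4 ± 9.61 and 58.9 ± 3.7 CPM in the same order, and Ppargc1b, a coactivator of mitochondrial genes, at 11.7 ± 0.966, 39.1 ± 2.82 and 3.95 ± 0.933 CPM. These 3 genes rose over SC and stayed below SCR. Myc had 163, 166 and 179 CPM in SCRP, above all SCR libraries (125, 127 and 136 CPM) and all SC libraries (82.4, 84.6 and 89.7 CPM). Mitf, which works with NFATc1 on late osteoclast genes, did not follow: it was at 74.3 ± 0.976 CPM in SCRP and 142 ± 7.62 CPM in SCR, against 82.3 ± 1.87 CPM in SC, and its small fall (log2 -0.15 ± 0.05) lost its call with upper-quartile factors (adjusted p = 0.0791) and without SCRP replicate 3, SC replicate 2 or SC replicate 3 (adjusted p = 0.0625, 0.0576 and 0.0674). Mef2c fell (log2 -1.38 ± 0.11), with 37.4, 40.1 and 47.5 CPM in SCRP and 95.5, 112 and 119 CPM in SC. In SCR it was lower still, at 19.9, 24.7 and 26.7 CPM.

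**Figure D2:**
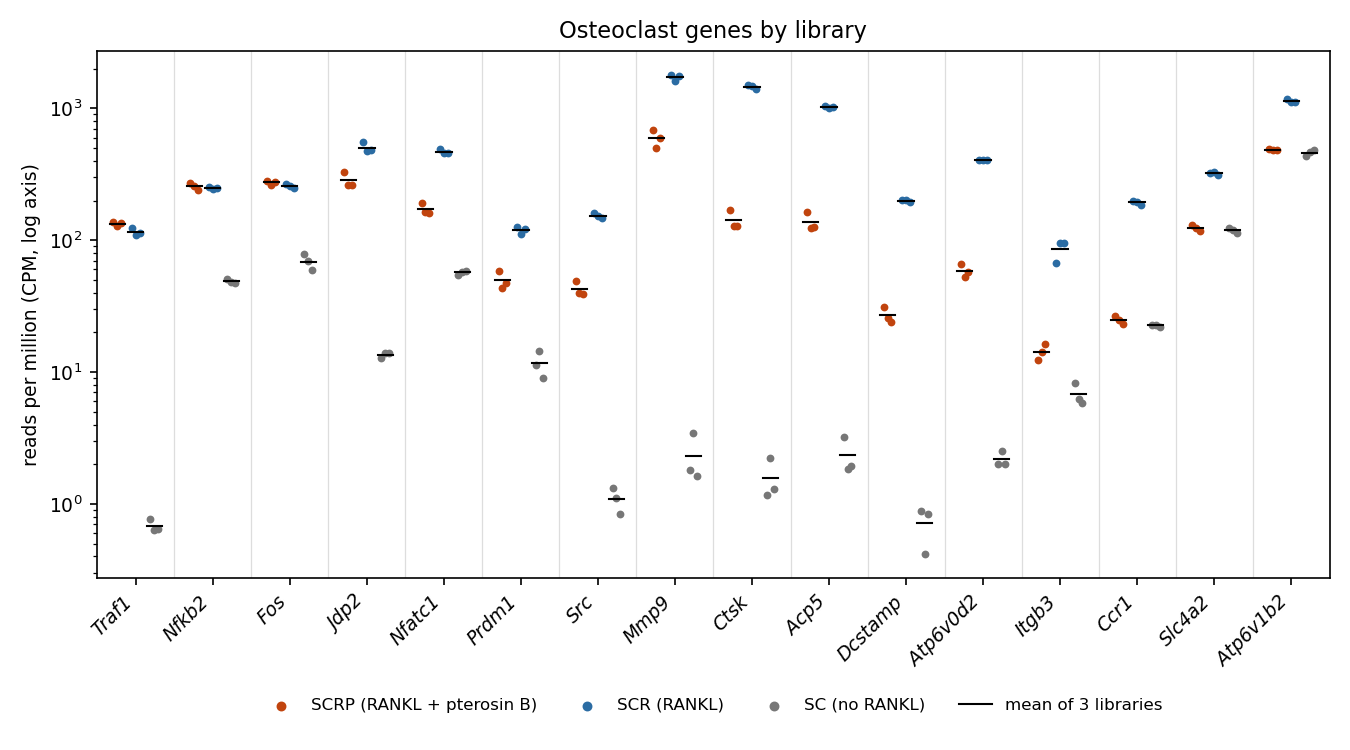
CPM of 16 osteoclast genes on a log axis in SCRP, SCR and SC, with 1 point per library and a line at the mean of the 3 libraries. Traf1, Nfkb2 and Fos in SCRP stand at or above SCR, Mmp9, Ctsk, Acp5, Dcstamp and Atp6v0d2 stand between the other groups, and Ccr1, Slc4a2 and Atp6v1b2 did not pass the test against SC.

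Effector genes of the mature osteoclast left the SC range and stayed below the SCR level. Mmp9, a gelatinase of osteoclasts (ENSMUSG00000017737, GRCm38 chromosome 2, 164940780 to 164955850), had 687, 497 and 599.8 CPM in SCRP and 1801, 1614 and 1771 CPM in SCR, against 1.8, 3.46 and 1.63 CPM in SC. Its rise over SC was 8.04 ± 0.17 (adjusted p = 3.42e-15), and the SCRP mean was 34.4% of the SCR mean. Ctsk, the collagen-degrading cathepsin K (ENSMUSG00000028111, chromosome 3, 95499256 to 95509362), had 169.5, 128 and 128 CPM in SCRP and 1494, 1474 and 1412 CPM in SCR, against 1.16, 2.23 and 1.31 CPM in SC. It rose by 6.52 ± 0.15 over SC (adjusted p = 8.74e-15) and reached 9.7% of the SCR mean. Acp5, the tartrate-resistant acid phosphatase by which osteoclasts are stained, had 164, 124 and 126 CPM in SCRP and 1035, 1003 and 1017 CPM in SCR, against 3.22, 1.84 and 1.95 CPM in SC, a rise of 5.86 ± 0.15, with 69.5% of its reads unique. No SCRP library of these 3 genes fell within either of the other groups.

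The bone matrix list was otherwise mixed. Of 14 members tested, 4 were higher, namely these 3 and the membrane-bound protease gene Mmp14 (25.3 ± 6.93 CPM in SCRP, 118 ± 5.85 in SCR and 5.48 ± 0.964 in SC), and 5 were lower, for a median of -0.16. These counts are 28.6% and 35.7% of the list, near the 28.6% and 27.4% of all genes tested. Lower members included the collagenase gene Mmp13 (log2 -2.93 ± 0.12), the heparanase gene Hpse (-1.92 ± 0.13) and the macrophage elastase gene Mmp12 (-1.06 ± 0.08). Mmp13, Hpse and Mmp12 were low in SCR too, with 816, 1672 and 9212 reads over the SCR libraries. They had 464, 1911 and 13339 reads over SCRP and 3151, 6462 and 24807 over SC. Chst11, a chondroitin sulfotransferase gene, was at 8.3 ± 1.71 CPM in SCRP and 8.5 ± 0.617 CPM in SC (adjusted p = 0.809), with 41.6 ± 2.6 CPM in SCR.

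The main fusion genes also lay between SC and SCR. Dcstamp and Ocstamp encode membrane proteins needed for fusion of precursors, and Atp6v0d2 a proton pump subunit that also acts in fusion. Dcstamp had 31.2, 25.7 and 23.9 CPM in SCRP and 202, 202 and 195 CPM in SCR, against 0.876, 0.42 and 0.839 CPM in SC. Ocstamp had 26.5, 20.5 and 20.9 CPM in SCRP and 119.5, 113 and 114 CPM in SCR, against 0.0876, 0.446 and 0.247 CPM in SC. Atp6v0d2 had 66.2, 52.5 and 57 CPM in SCRP and 404, 404 and 408 CPM in SCR, against 2.02, 2.52 and 2.0 CPM in SC. Their rises over SC were 5.21 ± 0.15, 6.48 ± 0.20 and 4.75 ± 0.10, and their SCRP means were 13.5%, 19.6% and 14.4% of the SCR means. Of the 16 fusion genes tested, 9 were higher and 6 lower in SCRP, with a median of 0.34. The lower members included the tetraspanin genes Cd9 (-0.74 ± 0.05) and Cd81 (-0.96 ± 0.07) and the ATP receptor gene P2rx7 (-0.68 ± 0.06). Cd9 and Cd81 were lower than SC in SCR too (log2 difference, SCR minus SC, -0.35 and -1.58). P2rx7 had 6172 reads over SCRP, 5090 over SCR and 8895 over SC.

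Receptors and ligands of mature osteoclasts leaned to one side, with 11 of 13 tested members higher in SCRP, 0 lower and a median of 1.47. Another 5 listed members were too low to test. Calcr, Mst1r, Lif, Sphk1 and F2r had only 0, 2, 4, 10 and 19 reads over the SC libraries. They passed the filter on low counts through the RANKL cultures, which left little room for a fall. The lean of the list is therefore partly set by the filter. Csf1, the gene of macrophage colony-stimulating factor, did not pass the test and was called lower without a filter on low counts, with the replicate number as a block and without SCRP replicate 2 (adjusted p = 0.0498, 0.0288 and 0.0378). Lgr4, a receptor for RANKL and one of the 11, lost its call without SCRP replicate 2, SCRP replicate 3, SC replicate 1 or SC replicate 2 (adjusted p between 0.0619 and 0.0955). Mst1r, a receptor tyrosine kinase gene, had 3.89, 2.49 and 3.46 CPM in SCRP and 54.4, 56.9 and 51.3 CPM in SCR, against 0.0438, 0 and 0 CPM in SC, where it had 2 reads in all. Calcr, the calcitonin receptor and a late marker of osteoclasts, had 42 reads over the 3 SCRP libraries and 0 in SC, at least 4.41-fold higher with a floor of 3 reads per library, and its SCRP mean was 3.57% of the SCR mean. F2r, a thrombin receptor gene, reached 7.28%, Lif, a cytokine gene, 6.4%, and Sphk1, which makes sphingosine-1-phosphate, 5.61% of SCR. Sema4d, a semaphorin by which osteoclasts inhibit osteoblasts, was an exception, with 673, 666 and 651 CPM in SCRP and 652, 638 and 641 CPM in SCR, against 254, 238 and 228 CPM in SC. Ednrb, an endothelin receptor gene, had 61.8, 63.3 and 67.2 CPM in SCRP, above both SCR (17.7, 17.6 and 19.5 CPM) and SC (28.2, 39.3 and 46.9 CPM).

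**Figure D3:**
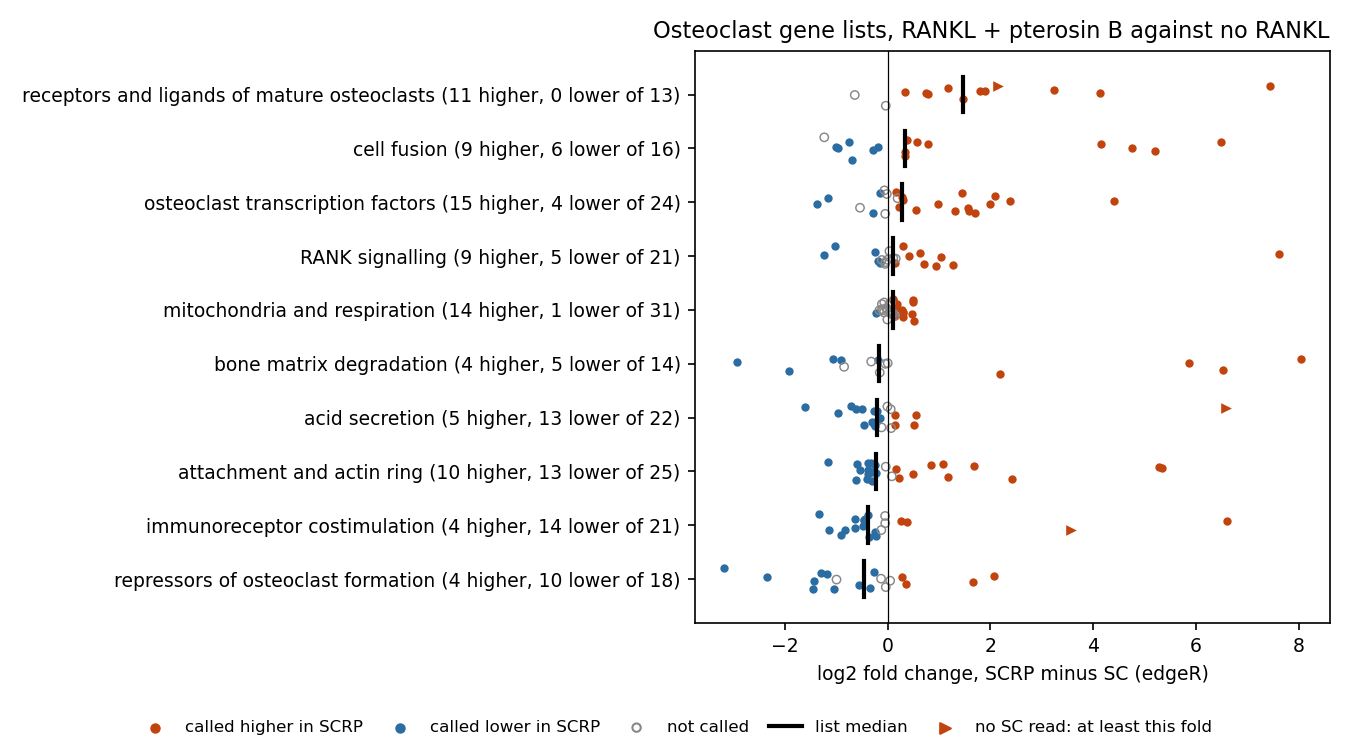
Log2 fold changes, SCRP minus SC, of the tested members of 10 osteoclast lists, with filled points for called genes, open circles for genes not called and a black line at the list median. Arrowheads mark genes without SC reads at their lower bound. The lists of receptors, fusion genes and transcription factors have medians above 0, and those of acid secretion, attachment, costimulation and repressors have medians below 0 with a few members far to the right.

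The acid-secreting machinery was for the most part at or under the precursor level. Of 22 members tested, 5 were higher and 13 lower in SCRP than in SC, with a median of -0.21, and 21 were lower than in SCR, where 16 of 22 were higher than in SC (of all genes tested, 37.8% differed between SCRP and SCR, 19.9% being lower in SCRP, and 59.1% differed between SCR and SC, 30.7% being higher in SCR). Car2, the carbonic anhydrase that supplies protons, stood out: it had 8.42, 6.01 and 6.52 CPM in SCRP and 52.2, 50.3 and 50.7 CPM in SCR, against 0 reads in every SC library. It was at least 95.9-fold higher in SCRP than in SC, and its SCRP mean was 13.7% of the SCR mean. Atp6v1b2, a catalytic-head subunit of the proton pump, had 490.1, 481 and 479.7 CPM in SCRP and 1177, 1127 and 1128 CPM in SCR, against 438, 463 and 479.6 CPM in SC. The SCRP libraries did not pass the test against SC (log2 0.07 ± 0.04, adjusted p = 0.151) but did with upper-quartile factors or without SC replicate 3 (adjusted p = 0.0263 and 0.0418). Likewise Slc4a2, the chloride-bicarbonate exchanger, was at 124 ± 6.38 CPM in SCRP and 119 ± 4.33 CPM in SC (adjusted p = 0.288), with 322 ± 7.52 CPM in SCR, and Snx10, a sorting nexin mutated in human osteopetrosis, at 102 ± 2.21 CPM in SCRP and 102 ± 0.646 CPM in SC (adjusted p = 0.969), with 286 ± 9.6 CPM in SCR.

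Several proton pump subunits fell below the SC range, some of them below both other groups. Atp6v0a1 had 95.7, 114 and 122 CPM in SCRP, against 324, 345 and 345 CPM in SC (log2 -1.61 ± 0.07). It was low in SCR too, with 12890 reads over the SCR libraries, 15450 over SCRP and 41923 over SC. Atp6v1g1 (log2 -0.49 ± 0.05) and Atp6v0d1 (-0.71 ± 0.05) fell to levels under those of SC and SCR. Plekhm1, a regulator of vesicle transport to the ruffled border, was at 104 ± 4.65 CPM in SCRP and 149 ± 4.27 CPM in SCR, against 204 ± 2.85 CPM in SC. Tcirg1, the osteoclast isoform of the pump's a subunit, was 1 of the 5 that rose (log2 0.52 ± 0.06), at 575 ± 40.5 CPM in SCRP and 400.3 ± 34.7 CPM in SC.

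Attachment and actin ring genes were divided. Of 25 tested, 10 were higher and 13 lower, with a median of -0.23. Src, the kinase required for the ruffled border, had 49.3, 39.5 and 38.9 CPM in SCRP and 162, 152 and 148 CPM in SCR, against 1.31, 1.1 and 0.839 CPM in SC (log2 5.28 ± 0.13, adjusted p = 1.70e-14). Itgb3, the β3 chain of the integrin by which osteoclasts bind bone, had 12.3, 14.3 and 16.3 CPM in SCRP and 67.1, 94.6 and 94.7 CPM in SCR, against 8.28, 6.27 and 5.85 CPM in SC, a rise of 1.07 ± 0.15. Both were above SC and below SCR in every library. Dock5, a Rac activator of osteoclasts, rose by 2.41 ± 0.07 and Myo10, an unconventional myosin, by 1.68 ± 0.07, with SCRP means at 76.6% and 58.8% of SCR. Lower members included several general regulators of actin: Tln1 (talin, -0.54 ± 0.03), Gsn (gelsolin, -0.61 ± 0.04), Cdc42 (-0.37 ± 0.04) and Vav3 (-1.16 ± 0.08).

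Immunoreceptor costimulation, the source of calcium signals for NFATc1, was mostly lower: 4 of 21 tested members were higher and 14 lower, with a median of -0.38. The adaptor genes Fcer1g (log2 -1.33 ± 0.05) and Tyrobp (-0.36 ± 0.05) fell, as did Trem2, a receptor that signals through TYROBP (-0.84 ± 0.06). Fcer1g, Tyrobp and Trem2 were lower than SC in SCR too (log2 difference, SCR minus SC, -1.45, -0.59 and -1.20). Of the same 21 members, 11 were lower and 6 higher in SCR than in SC, against 28.4% and 30.7% of all genes tested. Oscar, an osteoclast receptor of the same system, had 2.53, 1.06 and 1.91 CPM in SCRP and 25.9, 24.9 and 27 CPM in SCR, against 0.0438, 0 and 0 CPM in SC, so that it had left the SC range at 7.06% of the SCR mean. Siglec15, another late receptor, had 115 reads over the SCRP libraries and 0 in SC, at least 11.8-fold higher, and stood at 9.04% of the SCR mean.

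Mitochondrial genes, which support resorption, differed little from SC. Of 31 tested, 14 were higher and 1 lower, with a median of 0.10, and 29 were lower in SCRP than in SCR. The lower count was 2 without SCRP replicate 1, SC replicate 1 or SC replicate 3, and also with RLE factors, no filter on low counts, the replicate block, halved counts or DESeq2. The largest rises were in Ndufv1 (0.52 ± 0.08), Cyc1 (0.50 ± 0.05) and Idh3a (0.49 ± 0.05), subunits of complex I, complex III and the citric acid cycle. Atp5a1, a subunit of ATP synthase, was at 761 ± 12.4 CPM in SCRP and 766 ± 8.9 CPM in SC (adjusted p = 0.846), with 1079 ± 17.5 CPM in SCR. Reads of the mitochondrial genome took 3.22% to 3.77% of the SCRP libraries, 3.29% to 3.47% of the SCR libraries and 2.57% to 2.80% of the SC libraries. In this measure SCRP overlapped SCR and lay above SC.

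Repressors of osteoclast formation had in large part declined. Of 18 tested, 10 were lower and 4 higher, with a median of -0.45. Irf8, which blocks NFATc1 in precursors, had 54.8, 61.9 and 55.1 CPM in SCRP and 25.9, 29.4 and 26.2 CPM in SCR, against 157, 161 and 153 CPM in SC (log2 -1.46 ± 0.06, adjusted p = 6.21e-12), with 45.6% of its reads unique. The SCRP libraries of Irf8 lay between the other groups without overlap. Id1, Id2 and Id3, inhibitors of helix-loop-helix factors, fell, with log2 fold changes of -2.35 ± 0.10, -1.04 ± 0.08 and -1.43 ± 0.10. Hdac9, a class II histone deacetylase gene (-3.18 ± 0.18), and Cebpa, a myeloid factor (-1.18 ± 0.10), fell too. Rbpj, the Notch-pathway factor that restrains osteoclast formation, was at 564 ± 28.4 CPM in SCRP and 577 ± 61.3 CPM in SC (adjusted p = 0.677), with 365 ± 15.6 CPM in SCR. Socs3, an inhibitor of cytokine signalling, rose by 2.08 ± 0.13, with 17.8, 18.4 and 15.6 CPM in SCRP, above SCR (8.57, 9.69 and 7.27 CPM) and SC (3.9, 4.04 and 4.32 CPM).

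The macrophage programme of the precursor was reduced throughout. All 30 monocyte and macrophage markers tested were lower in SCRP than in SC, 20 of them at least 2-fold, with a median of -1.62, and their summed level was 14926 to 17244 CPM in SCRP and 10277 to 12020.3 CPM in SCR, against 34808 to 38121 CPM in SC. Csf1r fell (log2 -0.99 ± 0.04, adjusted p = 5.63e-12). Lyz2, the lysozyme gene of macrophages, had 8105, 9550.3 and 9287 CPM in SCRP and 4978, 6005 and 5688 CPM in SCR, against 18957, 16912 and 16500.0 CPM in SC (log2 -0.96 ± 0.07), and Adgre1, the F4/80 antigen, fell as well (-0.77 ± 0.05). No SCRP library of these 3 genes reached the SC range.

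Scavenger and tissue-macrophage genes had some of the larger falls. Mrc1, the mannose receptor, had 123, 127 and 142 CPM in SCRP and 106, 112 and 115 CPM in SCR, against 723, 941 and 1052 CPM in SC (log2 -2.79 ± 0.10, adjusted p = 1.31e-12). Siglec1, the sialoadhesin of resident macrophages, had 8.9, 8.98 and 7.84 CPM in SCRP and 18.8, 17.8 and 19.5 CPM in SCR, against 239.7, 244 and 225 CPM in SC (log2 -4.79 ± 0.07). In SCRP it lay below SCR as well. Gas6, a ligand for clearance of dying cells (-3.13 ± 0.08), Marco, a scavenger receptor (-3.54 ± 0.12), and Fcgr1, the high-affinity Fc receptor (-3.30 ± 0.09), fell as well. The complement genes C1qa, C1qb and C1qc had log2 fold changes of -0.70 ± 0.06, -0.80 ± 0.08 and -1.14 ± 0.07 and stood above SCR by log2 differences of 1.65, 1.60 and 1.32. Cd14, a coreceptor for bacterial lipopolysaccharide, was likewise at 96.7 ± 0.861 CPM in SCRP and 41.3 ± 0.604 CPM in SCR, against 121 ± 1.98 CPM in SC.

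Markers of other cells were low in every group. Of 17 dendritic cell and MHC class II genes tested, 10 were lower and 0 higher, or 1 higher without SCRP replicate 1 or SC replicate 1 and without a filter on low counts. Their median was -1.23, and they summed to 70.2 to 82.9 CPM in SCRP and 149 to 180.1 CPM in SCR, against 137 to 171 CPM in SC. H2-Ab1, an MHC class II chain, had 3.96, 3.81 and 3.72 CPM in SCRP and 12.6, 15.1 and 14.5 CPM in SCR, against 15.3, 12.6 and 9.58 CPM in SC (log2 -1.71 ± 0.15). Cd74, the class II invariant chain, had 19.8, 21.8 and 23.6 CPM in SCRP and 54.1, 67.5 and 67.1 CPM in SCR, against 52.9, 51.3 and 40.8 CPM in SC (log2 -1.15 ± 0.10). Both lay below SCR and SC in all SCRP libraries. Of 14 neutrophil genes tested, 11 were lower and 1 higher, with a median of -1.54 and a summed level of 20.5 to 23.7 CPM in SCRP and 63.9 to 72.2 CPM in SCR, against 122 to 137 CPM in SC. S100a8, which defines them, was at 2.95 ± 0.357 CPM in SCRP and 8.17 ± 3.52 CPM in SC, and Elane at 0.013 ± 0.0225 and 0.82 ± 0.0268 CPM. The part of these cells in the lower levels of genes they share with monocytes was not tested.

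Lymphoid, erythroid, mast cell and stromal lists held few genes high enough to test. They numbered 2 of 10, 3 of 9, 2 of 7 and 6 of 10, and summed to 0.74 to 0.882, 32.4 to 51.3, 0.993 to 1.32 and 12.4 to 14.4 CPM in SCRP, against 1.1 to 1.78, 246 to 260.4, 0.262 to 0.494 and 12.2 to 17.2 CPM in SC. The called members were Cd79b of B cells (log2 -2.43 ± 0.57), Pf4, a platelet factor also made by macrophages (-2.97 ± 0.13), the collagen gene Col1a1 (-1.01 ± 0.28) and, as the only one that rose, Gata2, a factor of mast cells and progenitors (2.91 ± 0.61). The Col1a1 call was lost without SC replicate 3, while 1 stromal gene rose without SCRP replicate 1 and 1 erythroid gene without SCRP replicate 2 or SCR replicate 2. That erythroid count was also 1 with upper-quartile factors, no filter on low counts, SC and SCRP libraries only, unique reads, halved counts or DESeq2. Cd79a had 16 reads over the SCRP libraries and 16 over the SC libraries.

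**Figure D4:**
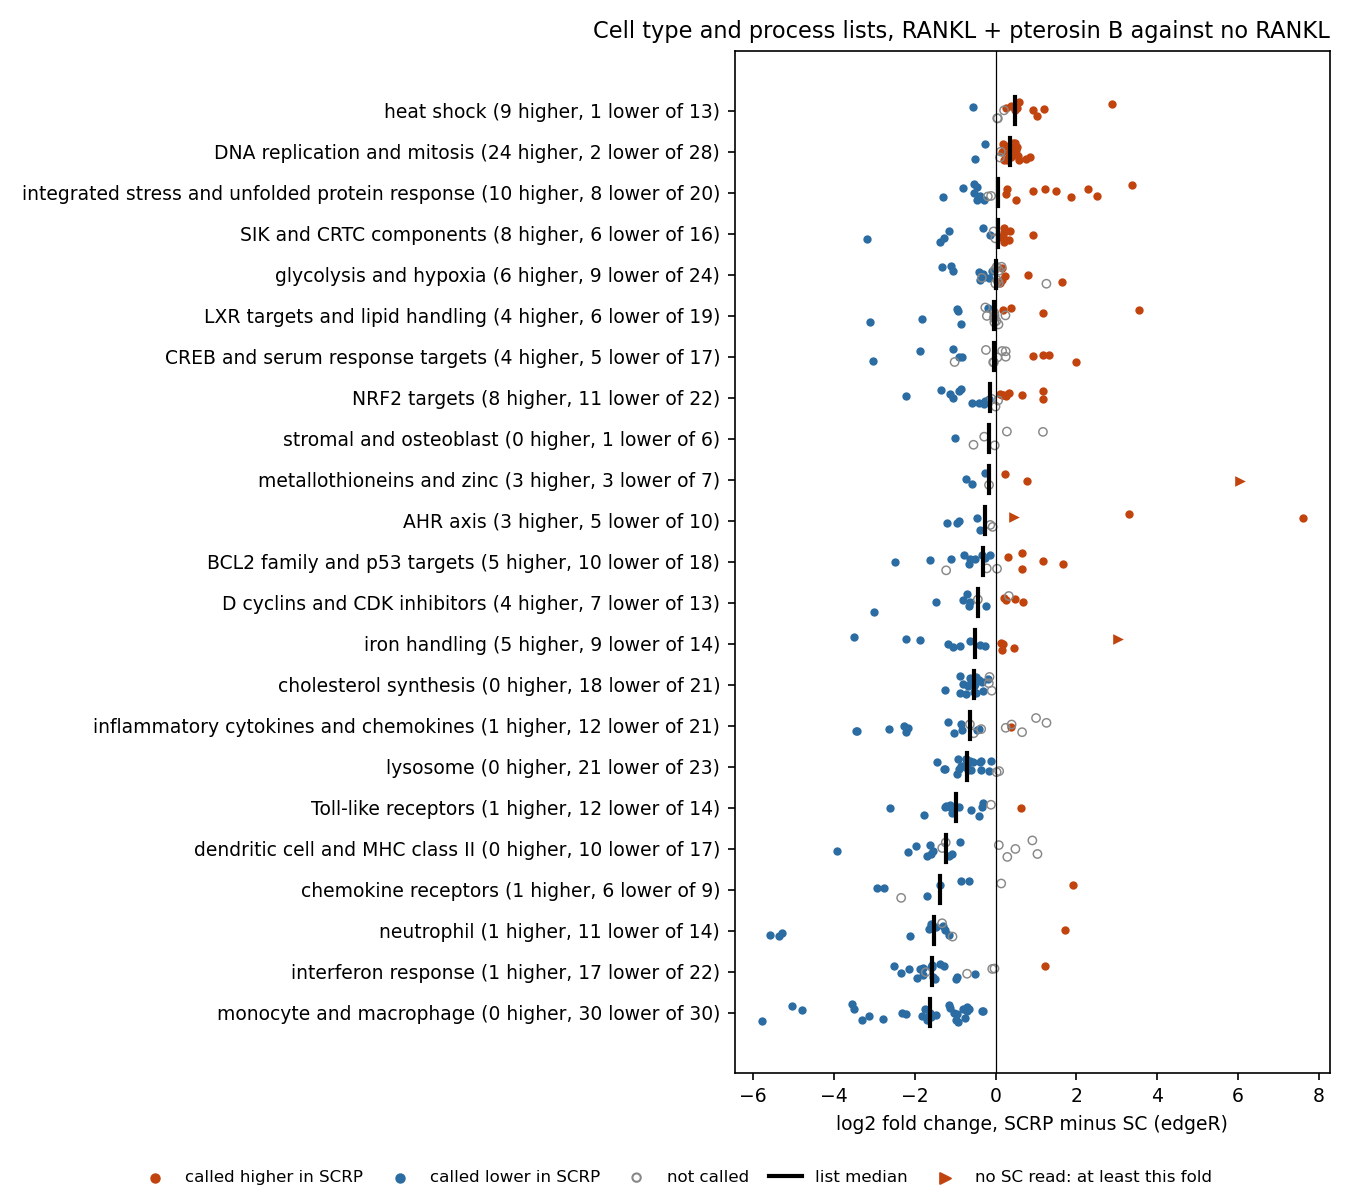
Log2 fold changes, SCRP minus SC, of tested members of 23 cell type and process lists with at least 5 tested genes, drawn as for the osteoclast lists. Macrophage, interferon, neutrophil and chemokine receptor genes have the lowest medians, and heat shock and replication genes the highest.

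Rises were ranked among called genes averaging at least 5 CPM over SC and SCRP. Predicted genes without a known symbol, and genes whose SCRP and SC libraries overlapped, were left out. The largest rises were mostly osteoclast genes and others that were also higher in SCR than in SC. Traf1, Ocstamp, Ctsk, Acp5, Mmp9 and Src were among the 15 at the top. Rufy4, which encodes a regulator of autophagy, had 13.5, 9.79 and 9.19 CPM in SCRP and 55.5, 60.7 and 59.4 CPM in SCR, against 0 reads in SC, at least 149-fold higher. Mycl, a relative of Myc, had 36.9, 27 and 31.8 CPM in SCRP and 46.7, 33 and 42.4 CPM in SCR, against 0.0438, 0.0524 and 0.197 CPM in SC (log2 8.33 ± 0.27). Both had left a precursor level close to 0. Scin (scinderin, an actin-severing protein) rose by 7.60 ± 0.27 and reached 17.1% of SCR, whereas Vegfc (a lymphatic growth factor, 6.88 ± 0.25), Htra1 (a secreted protease, 6.95 ± 0.32, 68.8% unique reads) and Spint2 (a protease inhibitor, 6.55 ± 0.32) reached 63.3%, 85.3% and 100.2%. Gstt1, a glutathione transferase gene, had 21.6, 17.1 and 19.9 CPM in SCRP and 12.9, 11.5 and 12.8 CPM in SCR, against 0.0438, 0.315 and 0.197 CPM in SC. Cd55 is described with the genes outside both groups, and Cav1, the caveolin gene, had 96.8 ± 8.67 CPM in SCRP and 1.98 ± 0.506 CPM in SC with 16.6% unique reads and an overlapping gene.

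Under the same limits, the 15 largest falls were led by Slco2b1, an organic anion transporter gene, with 0, 0 and 0.0778 CPM in SCRP, 4 reads in all, against 10.9, 11.9 and 15.2 CPM in SC. F13a1, coagulation factor XIII of macrophages, had 3.96, 4.05 and 3.99 CPM in SCRP, against 216, 218 and 229 CPM in SC (log2 -5.79 ± 0.07, 60.0% unique reads). Fcrls, a scavenger receptor, had 2.24, 2.73 and 2.96 CPM in SCRP, against 90.4, 87.7 and 86 CPM in SC (log2 -5.05 ± 0.17). In each case SCRP and SC were far apart. F13a1 and Fcrls were low in SCR too. F13a1 had 555 reads over SCRP, 1349 over SCR and 27491 over SC, and Fcrls had 370, 247 and 10953. Mmp8, in contrast, had 254, 5128 and 9344 reads in the same order. Siglec1, Mmp8 and Mmp27 (metalloproteinase genes), Cd28 (a costimulatory receptor better known from T cells), Cbr2 (a carbonyl reductase), Rasgrp3 (a Ras activator), Padi4 (a peptidylarginine deiminase), Enpp1 (which makes pyrophosphate), Rpph1, Adgb, Cd244a and P2ry12 completed the group, with log2 fold changes between -5.55 and -3.57. P2ry12 had 20.5% unique reads and overlaps Med12l, and Rpph1, the RNA of ribonuclease P, overlaps Ccnb1ip1. Without a stated counting strand, reads of such overlapping genes cannot be told apart.

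Some genes lay outside the levels of both other states. In 2508 genes (18.4%) all 3 SCRP libraries were above or below all 6 SCR and SC libraries, with 1273 above (9.33%) and 1235 below (9.05%), and without TMM factors the split was 1719 and 910. Genes above both included Pltp, a phospholipid transfer protein induced by liver X receptors (ENSMUSG00000017754, chromosome 2, 164839518 to 164857711), with 155, 117 and 137 CPM in SCRP and 65.8, 51 and 60.7 CPM in SCR, against 11.5, 12.1 and 11.4 CPM in SC (log2 3.55 ± 0.11 over SC). Ahr, the aryl hydrocarbon receptor, had 35.1, 31.2 and 33.3 CPM in SCRP and 13, 12.9 and 13.6 CPM in SCR, against 2.85, 3.09 and 4.2 CPM in SC (log2 3.30 ± 0.12 over SC, adjusted p = 1.50e-12). Cxcr4, the chemokine receptor that holds cells in bone marrow, had 29.6, 26.3 and 24.9 CPM in SCRP and 7.36, 7.66 and 6.99 CPM in SCR, against 8.61, 7.79 and 4.79 CPM in SC (log2 1.93 ± 0.15). Every SCRP library of Cxcr4 lay above the other 6, and SCR did not pass the test against SC (adjusted p = 0.805). Cd55, an inhibitor of complement, had 15.3, 12.5 and 18.2 CPM in SCRP and 5.64, 6.18 and 6.75 CPM in SCR, against 0.307, 0.105 and 0.296 CPM in SC. Phgdh, the first enzyme of serine synthesis, and Adora2b, an adenosine receptor, rose by 1.86 ± 0.15 and 1.46 ± 0.13 over SC and by 1.37 and 1.30 over SCR. The heat shock gene Hspa1b (73.3% unique reads), the chemokine gene Cxcl16, the centrosomal gene Cep85 and Syn1, which overlaps Timp1 and Araf, were the other 4 of the 10 with the largest gap, with rises over SC of 2.89, 1.60, 1.81 and 1.96.

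**Figure D5:**
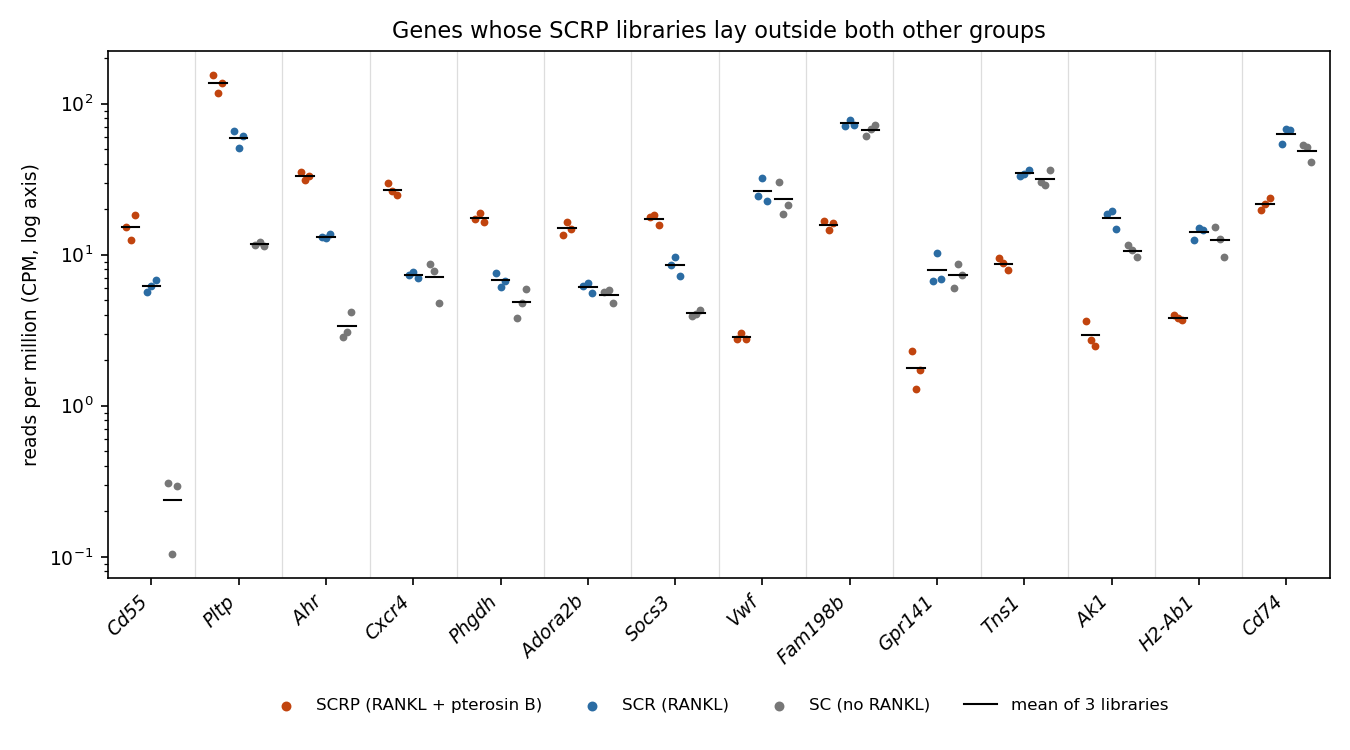
CPM of 14 genes on a log axis in SCRP, SCR and SC, with 1 point per library and a line at the mean. The SCRP libraries of Cd55 to Socs3 lie above all SCR and SC libraries, and those of Vwf to Cd74 lie below them.

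Genes below both states formed the other side. Vwf, von Willebrand factor (ENSMUSG00000001930, chromosome 6, 125546774 to 125686679), had 2.77, 3.02 and 2.74 CPM in SCRP and 24.3, 32.1 and 22.7 CPM in SCR, against 30.2, 18.5 and 21.2 CPM in SC (log2 -3.04 ± 0.18 over SC, adjusted p = 4.52e-10). Fam198b had 16.6, 14.7 and 16.2 CPM in SCRP and 71.5, 78 and 72.5 CPM in SCR, against 61.3, 67.8 and 72 CPM in SC (log2 -2.08 ± 0.07). Mmp8, a collagenase of neutrophils, had 2.0, 1.89 and 1.63 CPM in SCRP and 34.7, 43 and 35.2 CPM in SCR, against 71.1, 77.3 and 77.8 CPM in SC. For Vwf and Fam198b the SCR and SC libraries overlapped, and the SCRP libraries lay below all of them. Tns1 (tensin, which links integrins to actin), Gpr141 (an orphan receptor), Ak1 (adenylate kinase) and Slc24a5 (an ion exchanger, 73% unique reads, overlapping Myef2) had log2 fold changes over SC of -1.87 ± 0.10, -2.05 ± 0.23, -1.86 ± 0.15 and -2.32 ± 0.14. Cd28 was at 1.05 ± 0.551 CPM in SCRP, 8.42 ± 1.56 in SCR and 49.1 ± 6.15 in SC, and Mmp27 at 0.304 ± 0.081, 3.38 ± 0.72 and 14.4 ± 1.14 CPM in the same order. Rpph1 completed the 10.

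SCRP cultures kept and slightly raised the genes of cell division. Of 28 replication and mitosis genes, 24 were higher and 2 lower than in SC, with a median of 0.36, and the lower count was 1 without SCRP replicate 1 or SC replicate 3. Mki67, a marker of cycling cells, had 1029, 1006 and 1071 CPM in SCRP and 908, 875 and 894 CPM in SCR, against 762, 812 and 863 CPM in SC (log2 0.35 ± 0.04). Bub1, a mitotic checkpoint kinase, and Mcm7, a helicase subunit, rose by 0.85 ± 0.07 and 0.75 ± 0.05, while Pcna, the replication clamp, fell (-0.50 ± 0.04). The D cyclins were lower: of 13 D cyclin and CDK inhibitor genes, 4 rose and 7 fell (median -0.44), with Ccnd2 at 4.69 ± 0.193 CPM in SCRP and 37.9 ± 2.39 CPM in SC and the CDK inhibitor gene Cdkn1a at 163 ± 12.1 and 449.8 ± 39 CPM.

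Innate immune genes were mostly lower in SCRP. Of 22 interferon response genes tested, 17 fell and 1 rose (median -1.56), with Oas3, an antiviral sensor, at 9.1 ± 2.67 CPM in SCRP, 23.1 ± 5.0 CPM in SCR and 40.3 ± 2.43 CPM in SC, and Isg15 at 0.968 ± 0.236, 3.26 ± 1.04 and 3.53 ± 0.708 CPM. Of 14 Toll-like receptor genes, 12 fell and 1 rose (median -0.99). In SCR, 13 of the 14 were lower than in SC (median -1.05), against 28.4% of all genes tested. Tlr7, a sensor of single-stranded RNA, fell (log2 -2.62 ± 0.08), and Tlr9, a sensor of DNA, rose by 0.63 ± 0.12. Tlr7 had 3299 reads over SCRP, 5345 over SCR and 18002 over SC. Of 21 inflammatory cytokine and chemokine genes, 12 fell and 1 rose (median -0.64), among the falls the monocyte attractants Ccl7 (log2 -3.45 ± 0.10) and Ccl3 (-2.27 ± 0.12). In SCR, 12 of the 21 were lower and 4 higher than in SC (median -1.15), against 28.4% and 30.7% of all genes tested. Ccl7 had 3891 reads over SCRP, 4569 over SCR and 37795 over SC, and Ccl3 had 1988, 2028 and 8532. Of 9 chemokine receptors, 6 fell and Cxcr4 rose (median -1.38), and 2 rose without SCRP replicate 3, with upper-quartile factors or with the replicate block. Ccr1, a chemokine receptor gene, had 24.9 ± 1.75 CPM in SCRP and 193 ± 6.65 CPM in SCR, against 22.6 ± 0.357 CPM in SC (adjusted p = 0.059 against SC).

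Most lysosomal and sterol synthesis genes fell. Of 23 lysosome genes, 21 fell and 0 rose (median -0.70). In SCR, 20 of the 23 were lower than in SC (median -0.61), against 28.4% of all genes tested. Ctsb, cathepsin B, had 3916, 4685 and 4415 CPM in SCRP and 3128, 3742 and 3462 CPM in SCR, against 12254, 11548 and 11520.0 CPM in SC (log2 -1.44 ± 0.06), and Ctss, cathepsin S, fell (-1.28 ± 0.07) to a level under both other groups. Of 21 cholesterol synthesis genes, 18 fell and 0 rose (median -0.53), among the falls Insig1, the sterol-sensing retention protein (log2 -1.26 ± 0.11), and Cyp51, lanosterol demethylase (-0.88 ± 0.10). All 21 were lower in SCR than in SC (median -0.94). Of the 21, 15 were higher in SCRP than in SCR, against 17.9% of all genes tested. Of 19 genes of liver X receptor targets and lipid handling, 4 rose and 6 fell (median -0.03), and without SCRP replicate 1, SCRP replicate 3 or SC replicate 2 the higher count was 2. The list's shares, 21.1% and 31.6%, were near those of all genes tested, 28.6% and 27.4%. Abcg1, a cholesterol exporter gene, rose by 1.17 ± 0.16 and Apoe, apolipoprotein E, fell (log2 -1.83 ± 0.17).

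Oxidative stress and iron genes gave no common direction. Of 22 NRF2 targets, 8 rose and 11 fell (median -0.13). Hmox1, haem oxygenase, had 431, 523 and 433 CPM in SCRP and 339, 376 and 349.7 CPM in SCR, against 2222, 2145 and 2044 CPM in SC (log2 -2.21 ± 0.07), while the cystine importer gene Slc7a11 and the glutathione-conjugate exporter gene Abcc1 rose by 1.18 ± 0.09 and 1.17 ± 0.04 to levels above both other groups. Of 14 iron genes, 5 rose and 9 fell (median -0.51), with 3 rises without SCRP replicate 2 and 2 without SC replicate 1. Tfrc, the transferrin receptor, was at 305 ± 4.2 CPM in SCRP and 778 ± 37.8 CPM in SCR, against 471 ± 47.2 CPM in SC, and the iron exporter gene Slc40a1 fell (log2 -1.86 ± 0.06). Of 7 metallothionein and zinc genes, 3 rose and 3 fell (median -0.16), and Mt1 was at 178 ± 7.67 CPM in SCRP and 153 ± 5.99 CPM in SC. Mt3, another metallothionein gene, had 662 reads over the SCRP libraries and 0 in SC.

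In the list of aryl hydrocarbon receptor genes, 3 of 10 rose and 5 fell (median -0.26). Beside the receptor gene, the rises were the target genes Cyp2s1, with 508 reads over the SCRP libraries and 3702 over SCR, against 2 over SC, and Aldh3a1, with 14, 235 and 0 reads. The falls included the receptor's repressor gene Ahrr (3.21 ± 0.703 CPM in SCRP, 34.4 ± 3.49 in SCR and 6.19 ± 0.458 in SC) and the target genes Cyp1b1 (0.562 ± 0.249, 1.5 ± 0.58 and 1.3 ± 0.589 CPM) and Nqo1 (15.3 ± 1.11, 54.8 ± 1.69 and 28.6 ± 1.41 CPM). Cyp1a1, a classical target, had 0 reads in all 9 libraries. Of 20 genes of the integrated stress and unfolded protein responses, 10 rose and 8 fell (median 0.07). Genes of amino acid and one-carbon synthesis were among the rises, with Asns, asparagine synthetase, at 88.5, 89.3 and 85.1 CPM in SCRP and 72.1, 67.8 and 72.6 CPM in SCR, against 15.2, 16.8 and 21.5 CPM in SC (log2 2.30 ± 0.09), and Chac1, a glutathione-degrading enzyme, up by 3.37 ± 0.29. Atf3, a stress-induced repressor, fell (log2 -1.31 ± 0.07). Of 13 heat shock genes, 9 rose and 1 fell (median 0.49), with Hsph1 and Hspd1, chaperones of the cytosol and the mitochondria, up by 1.21 ± 0.05 and 0.92 ± 0.04.

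Glycolysis and hypoxia genes were divided, with 6 of 24 higher and 9 lower (median 0.01). These counts are 25% and 37.5% of the list, beside 28.6% and 27.4% of all genes tested. Hk2, a hexokinase, fell (log2 -1.05 ± 0.06) and the growth factor gene Vegfa rose by 1.64 ± 0.16. Of 18 BCL2 family and p53 target genes, 5 rose and 10 fell (median -0.30). Bcl2l1, which protects from apoptosis, was at 60.7 ± 4.64 CPM in SCRP, 33.4 ± 0.774 CPM in SCR and 186 ± 4.78 CPM in SC, and the pro-apoptotic genes Pmaip1 and Bcl2l11 rose by 1.67 ± 0.13 and 1.17 ± 0.06. Of 17 CREB and serum response genes, 4 rose and 5 fell (median -0.04), with the phosphodiesterase gene Pde4b up by 1.17 ± 0.11 and the nuclear receptor gene Nr4a1 at 1.72 ± 0.089 CPM in SCRP and 6.28 ± 0.543 CPM in SC. The shares of this list, 23.5% and 29.4%, were near those of all genes tested. Of 16 genes of the salt-inducible kinases and their CRTC and class II HDAC substrates, 8 rose and 6 fell (median 0.06), and without SCRP replicate 2 or SC replicate 3 the higher count was 5. Sik3, the kinase whose signalling pterosin B is used to inhibit, had 52.1, 49.5 and 52.1 CPM in SCRP and 67, 64.1 and 65.1 CPM in SCR, against 51.3, 54.8 and 53 CPM in SC, and did not pass the test against SC (log2 -0.05 ± 0.05, adjusted p = 0.452).

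Intron reads, a separate readout of unspliced RNA chosen after the exon results were seen, gave 3548 calls among 12665 genes (28.0%), 1756 higher (13.9%) and 1792 lower (14.1%). Intron reads of Mmp9, Ctsk, Traf1 and Src were higher in SCRP than in SC by 10.03 ± 0.28, 4.17 ± 0.17, 8.32 ± 0.33 and 5.62 ± 0.29 on the log2 scale (SE), and those of Siglec1, Fcrls and Mrc1 changed by -4.86 ± 0.17, -5.02 ± 0.37 and -2.93 ± 0.14. Intron reads of Pltp, Ahr and Cxcr4 were higher by 3.38 ± 0.23, 2.35 ± 0.32 and 2.41 ± 0.60. All of these 10 genes, picked after their exon results were seen, passed the test on intron reads in the direction seen for exon reads. Slc24a5, by contrast, changed by -0.43 ± 0.15 in introns against -2.32 in exons. Mitf, called lower in exons, was called higher in introns (0.26 ± 0.09, adjusted p = 0.0345). Siglec15 and Junb, called higher in exons, did not pass the test on intron reads (adjusted p = 0.103 and 0.276). Their intron means in SCRP were low, at 0.0859 and 0.342 CPM.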

How the data were processed

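Directional libraries were made after removal of ribosomal RNA, per the labels' protocols. The table holds the authors' counts of exon reads for each gene as whole numbers, next to intron reads and unique exon reads, and the deposited RPKM values were scaled by the authors for exon length and library total, per the file headers. Genome builds GRCm38 and mm10 are named per the submitters' processing notes, and the sources used here name neither the aligner and counting program nor the counted strand. The series record mentions embryonic livers, whereas every sample label gives bone marrow monocytes, which was followed. The full table lists 41819 genes, 21653 of them without a read, and 75.3% to 79.0% of counts between 1 and 39 were even, so that halved counts were tried as an alternative. A further 99 per-sample columns, such as repeated values, and the separate table of the knockout experiment were not used here.

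Counts of the 9 libraries were filtered with filterByExpr, scaled with TMM and tested in 1 quasi-likelihood fit (edgeR 4.0.16, R 4.3.3), with Benjamini-Hochberg adjustment over 13650 genes, two-sided, with a common dispersion of 0.0072 and 6 residual degrees of freedom. SE values come from that fit. Where a group had no read, the fold is a lower bound from a floor of 3 reads per library, which covers counting error only. Gene positions come from the file and equal those of GENCODE M21, and promoter sequences come from RefSeq. Alternatives were other scaling factors, no filter on low counts, 2 groups only, unique reads, halved counts, the replicate number as a block, each library left out, and DESeq2 1.42.0.

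The 36 gene lists, with 657 entries, and the rule for named genes were chosen with earlier results of these data known. The rule takes all members of the osteoclast lists, the 4 called members with the largest change in each other list with defining markers, the 15 largest rises and falls at 5 CPM or more, and the 10 genes farthest above and below both other groups. Predicted genes without a known symbol were skipped in these rankings by size. The ranked rises and falls were also limited to called genes whose SCRP and SC libraries did not overlap. Further list members are named where a sentence concerns them, and were chosen after their values were seen. Same-numbered libraries deviated together weakly at most, with correlations of -0.05 to 0.10, and the numbers were not used as pairs in the main fit. Between SCRP and SCR these correlations were 0.049, 0.095 and 0.046 for replicates 1 to 3. The highest with another number were -0.007, -0.041 and 0.007, so a weak link between these 2 groups remains possible.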

Additional observations from a re-analysis of the deposited data

How the results depend on the processing

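The count of genes that differed between SCRP and SC was 7435 to 7773 under the 8 alternatives that kept every SCRP and SC library. It was 7039 to 7647 with each of the 9 libraries left out in turn, against 7639. The 2-fold count was 1750 to 1983 and 1773 to 1870, against 1854. Genes outside the SC range numbered 8031 to 8748 under 5 alternatives, against 8389, and genes outside both other groups 2401 to 2629, against 2508. Single libraries were not left out of the range counts, since fewer libraries alone widen them. With the replicate number as a block the fit called 7773 genes, 3971 higher and 3802 lower, and 1821 at 2-fold or more. The labels do not say what the numbers mark, and same-numbered libraries did not all correlate best with each other. Of the 329 genes that the naming rule admits, 278 were called. Of the same 329, 300 kept their status, called or not called, under every alternative that tested them. No direction was reversed among called genes. Small counts of list members, all under 10, moved with single libraries or other settings and are given beside those lists. Reads that map to several places or to overlapping genes limit Acp5, Irf8, F13a1, Cav1, P2ry12, Htra1, Hspa1b and Slc24a5, and levels near 1 CPM rest on about 40 reads in a library.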
